A study of Arabidopsis thaliana with 6 samples.

Results

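SAUR (SMALL AUXIN UP RNA) genes of Arabidopsis thaliana were followed in whole seedlings of the Ler accession 7 days after germination. The study made 3 libraries of a dme mutant (genotype labelled dme/-) and 3 of wild type (WT), to find transcripts whose level depends on DME, an enzyme that excises methylated cytosine from DNA. The members are all rows of the authors' table of differing genes whose description contains SAUR or whose gene name starts with SAUR, and they number 34 of 5322 rows. The sources used here do not name the dme allele, and they do not say how mutant seedlings were obtained or pooled. Nor do they say that libraries of 1 genotype are separate cultures, and p-values may then cover technical spread only.

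SAUR genes form the largest family of early auxin-responsive genes in plants. Auxin binds receptors of the TIR1/AFB family, the Aux/IAA repressors are degraded, and ARF transcription factors then switch on SAUR, GH3 and Aux/IAA genes within minutes. SAUR proteins are small, and their mRNAs are short-lived. SAUR19 and its relatives bind and inhibit phosphatases of the PP2C.D group, which keeps plasma membrane proton pumps phosphorylated and active, so that the wall is acidified and the cell expands. Many SAUR genes also respond to light, brassinosteroids and temperature, often in opposite ways in the hypocotyl and the cotyledons.

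For each gene the table gives the mean normalized count of the 6 libraries, an adjusted p and the log2 of the fold. Neither the header nor the table's title states the direction of the fold, which was taken as dme over WT because the title names dme. Only genes past a 2-fold change and an adjusted p of 0.05 are in it, so every member passed by construction. It has no values per library, no standard errors and no depths, and the spread between replicates cannot be shown. A mean for each genotype was instead computed from the overall mean and the fold, and is called the implied mean. An upper bound of the standard error (SE) was computed from the fold and the adjusted p, under the assumption of a test on the normal distribution. The authors' deposited table put DME itself at -1.55 log2 units (adjusted p = 4.88e-17). In whole seedlings, fewer cells of a type and less RNA per cell cannot be told apart.

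Most of the SAUR genes in the table were lower in dme. Of the 34 members 27 (79.4%) were lower and 7 (20.6%) higher, whereas 27.2% of all 5311 genes in the table were lower and 72.8% higher. The genome annotation names 79 SAUR genes, so 43.0% of the family was in the table, against 18.6% of annotated protein-coding genes. The lower members made up 34.2% of the family, against 4.86% of protein-coding genes. The higher members made up 8.86%, against 13.7%. Both backgrounds count genes the authors may have left untested. The other 45 SAUR genes have no value here, whether because they changed less than 2-fold, had a larger p or were not tested.

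The authors' deposited table gave a median of -1.47 log2 units for the 27 lower and 2.64 for the 7 higher members. Among its genes with reads in both genotypes the medians were -1.38 for all lower and 1.98 for all higher ones. Whether a gene had reads in both genotypes was inferred, from its mean count set against the size of its fold. Over all 34 members the median was -1.29 in the authors' deposited table, against 1.54 over its genes with reads in both genotypes. The implied means of the 27 lower members added up to 3689.6 normalized counts in dme and 10772 in WT. Those of the 7 higher members added up to 1230.5 in dme and 175 in WT. The summed implied level of all 34 genes was thus 4920 in dme and 10947 in WT, without the 45 genes that have no value. The 5 members with the highest implied WT means held 65.8% of the WT sum of all 34, so that sum describes mainly these. In dme the largest implied means were 734 for SAUR59, 514 for SAUR79, a higher member, and 504 for SAUR6.

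**Figure D1:**
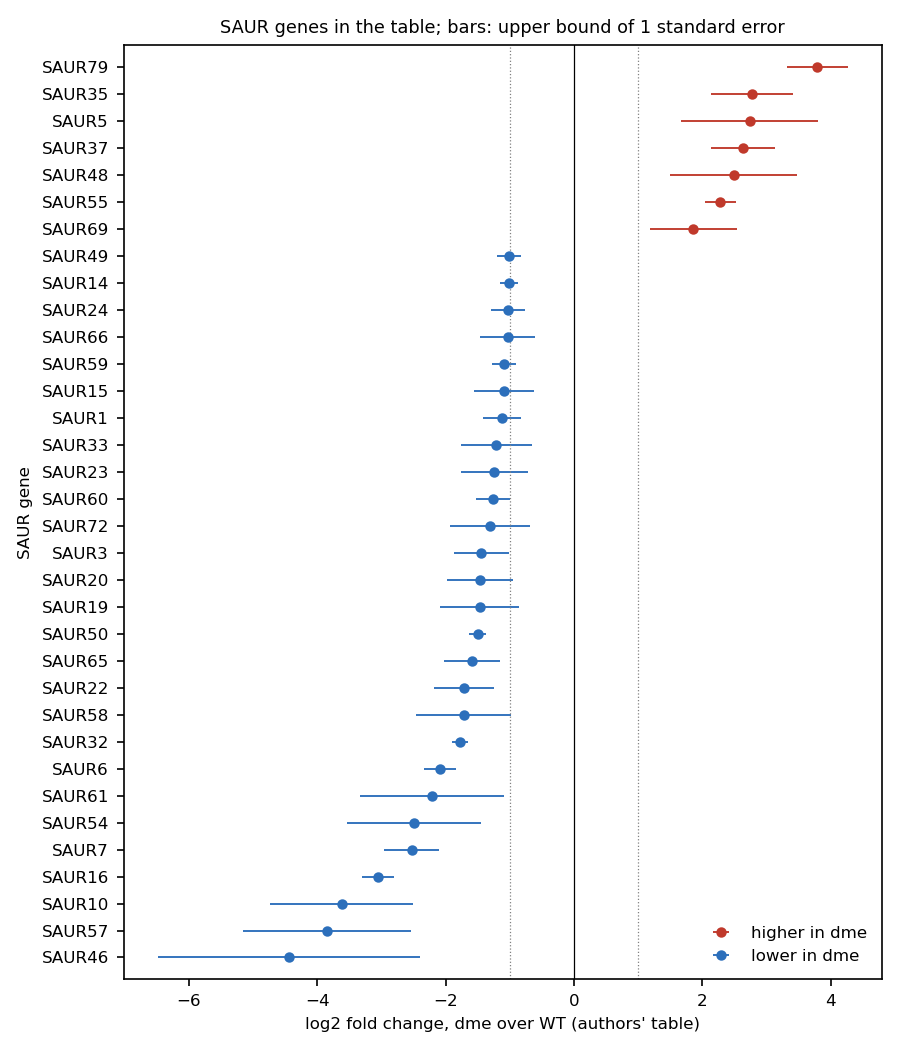
Log2 fold change, dme over WT, of the 34 SAUR genes in the authors' table, ordered by size, with genes higher in dme in red and lower in blue. Bars are the upper bound of 1 standard error, dotted lines mark the 2-fold threshold, and the 27 lower genes lie between -4.44 and -1.01 while the 7 higher ones lie between 1.86 and 3.79.

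SAUR19 to SAUR24 are the best studied promoters of hypocotyl cell expansion in the family and lie in a tandem array on chromosome 5. Coding sequences are shown for the pair of this array with the highest identity, SAUR19 and SAUR24, since near-identical copies can share reads. Both run over 273 bases of 1 exon, without gaps, and are 95.2% identical. Capitals mark the 13 bases at which they differ, and the longest stretch that both share is 75 bases.
SAUR19 (chr5:5963033-5963305, minus strand, TAIR10.1): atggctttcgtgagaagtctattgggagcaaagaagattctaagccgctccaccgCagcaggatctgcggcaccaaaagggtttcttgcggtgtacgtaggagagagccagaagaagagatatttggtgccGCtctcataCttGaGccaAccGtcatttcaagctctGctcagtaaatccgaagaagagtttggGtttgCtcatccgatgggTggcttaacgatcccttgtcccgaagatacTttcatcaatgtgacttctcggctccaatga
SAUR24 (chr5:5983840-5984112, plus strand, TAIR10.1): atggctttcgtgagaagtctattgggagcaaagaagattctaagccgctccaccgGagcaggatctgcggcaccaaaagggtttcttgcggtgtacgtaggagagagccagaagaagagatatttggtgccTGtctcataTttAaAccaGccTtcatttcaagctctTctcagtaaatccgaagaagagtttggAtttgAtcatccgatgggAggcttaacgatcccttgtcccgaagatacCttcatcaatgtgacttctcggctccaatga
Over all pairs of the 6 genes of this array the identity lay between 87.7% and 95.2%. The longest shared stretch of any pair was 86 bases, between SAUR19 and SAUR21. Neither the read length nor the treatment of reads that match several genes is known here, so values within the array may be mixed between its genes.

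Of the 6 genes of the SAUR19 array 5 were lower in dme, and SAUR21 was not in the table. The authors' deposited table put SAUR22 lowest, at -1.71 log2 units (adjusted p = 0.000304), with implied means of 42.8 in dme and 139.8 in WT. SAUR19 was at -1.47 (adjusted p = 0.0169) and SAUR20 at -1.46 (adjusted p = 0.0042) in the authors' deposited table. SAUR23 was at -1.24 (adjusted p = 0.0178) and SAUR24 at -1.03 (adjusted p = 0.000127) in the authors' deposited table. Per kb of transcript SAUR24 was the most abundant of the 5, with an implied 251 normalized counts in dme and 513 in WT. SAUR19 was the least abundant, at 22.6 in dme and 62.7 in WT on the same scale. The SE bounds run from 0.269 for SAUR24 to 0.617 for SAUR19, so the order of the 5 folds is not resolved.

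The other 6 arrays with members in the table held 13 lower genes and 1 higher gene. SAUR14, SAUR15 and SAUR16 lie side by side on chromosome 4, and all 3 were lower. SAUR16, which light induces in cotyledons and which promotes their opening, fell to an implied mean of 128 normalized counts in dme, against 1059 in WT. The authors' deposited table put SAUR16 at -3.05 log2 units (adjusted p = 3.57e-33) and SAUR14 at -1.01 (adjusted p = 2.19e-13). With SE bounds of 0.254 for SAUR16 and 0.138 for SAUR14, these neighbours lie apart by more than the sum of both bounds. SAUR15, the classic auxin reporter gene SAUR-AC1, was at -1.09 (adjusted p = 0.0217) in the authors' deposited table. AT4G38830, which lies within the same array but is no SAUR gene, was higher, at 1.59 log2 units in the authors' deposited table. AT4G38820 in this array and the non-SAUR protein-coding genes between SAUR genes of the other arrays were not in the table. Of all protein-coding genes 13.7% were higher.

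Another array on chromosome 4 runs from SAUR49 to SAUR5 over 22.4 kb and was the 1 array of 10 with both directions. SAUR50, like SAUR16 a light-induced gene of cotyledon opening, had implied means of 436 in dme and 1233 in WT. The authors' deposited table put it at -1.50 log2 units (adjusted p = 9.13e-32). SAUR3 was at -1.44 (adjusted p = 0.000794), SAUR1 at -1.12 (adjusted p = 0.000195) and SAUR49 at -1.01 (adjusted p = 1.14e-07) in the authors' deposited table. SAUR5, at the other end, was higher, at 2.74 log2 units (adjusted p = 0.0102) in the authors' deposited table, with implied means of 20.4 in dme and 3.06 in WT. SAUR2 and SAUR4, which flank SAUR3, were not in the table. SAUR3 and SAUR5 are each other's best protein match in the table's annotation, with 61.3% identity of their coding sequences, and changed in opposite directions.

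On chromosome 2, SAUR6 and SAUR7 were both lower. SAUR6, which the table's annotation describes as reduced by chitin oligomers, fell to an implied 504 normalized counts in dme, against 2153 in WT. The authors' deposited table put SAUR6 at -2.09 log2 units (adjusted p = 5.27e-17) and SAUR7 at -2.53 (adjusted p = 5.35e-09). Implied means of SAUR7 were 18.4 in dme and 106 in WT. The annotated transcripts of SAUR6 and SAUR7 overlap on the same strand, so reads in the overlap cannot be assigned to one of them. SAUR12, the remaining gene of that array, was not in the table.

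The genes around SAUR63, which promote the elongation of hypocotyls and stamen filaments, form a pair of arrays on chromosome 1. Of their 8 genes 3 were lower, and 5, including SAUR63, were not in the table. SAUR65 was at -1.59 log2 units (adjusted p = 0.000289), SAUR66 at -1.03 (adjusted p = 0.017) and SAUR61 at -2.21 (adjusted p = 0.0491) in the authors' deposited table. SAUR61 overlaps an annotated noncoding RNA gene on the other strand, and without knowledge of strand in the counting their reads cannot be told apart. SAUR54, paired on chromosome 1 with SAUR53, had implied means of 3.18 in dme and 17.9 in WT. The authors' deposited table put it at -2.49 log2 units (adjusted p = 0.0174).

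In all, 39 of the 79 SAUR genes lie in 10 tandem arrays, defined as SAUR genes with at most 2 other protein-coding genes between neighbours. Of these 39 genes 18 were lower and 1 higher, and of the 40 genes outside arrays 9 were lower and 6 higher. Among annotated protein-coding genes 4.86% were lower and 13.7% higher. Genes of 1 array are related, and some may share reads, so they are not independent and these counts are a description. None of the 5 genes of the array of SAUR26 to SAUR29 and SAUR73 on chromosome 3 was in the table. The same held for the pairs of SAUR51 with SAUR52 and of SAUR70 with SAUR76.

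**Figure D2:**
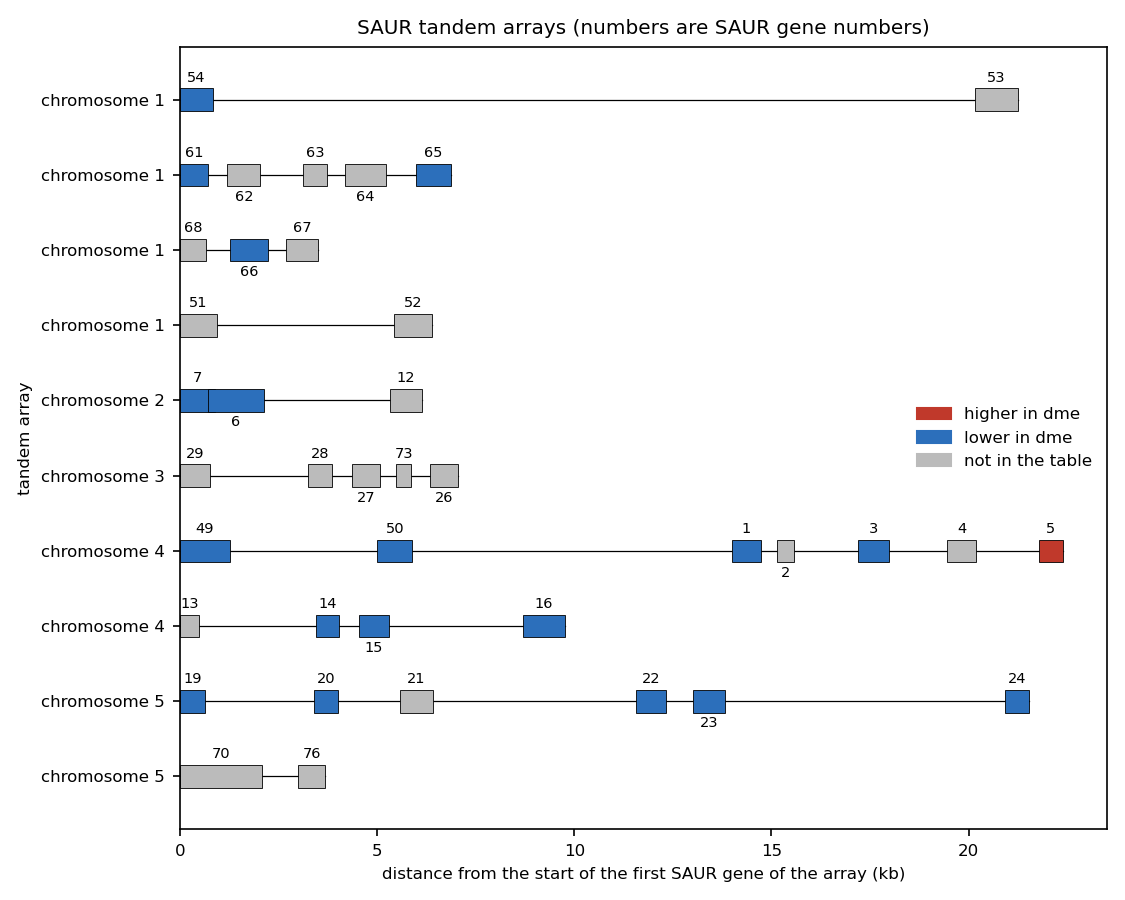
Map of the 10 tandem arrays of SAUR genes, each row 1 array on the named chromosome and the horizontal axis the distance in kb from the start of its first SAUR gene. Boxes are genes with their SAUR numbers, red higher in dme, blue lower and grey not in the table; the only red box among 39 genes is SAUR5 on chromosome 4.

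Outside the arrays, SAUR32 had the smallest adjusted p of all members. SAUR32, whose overexpression abolishes the apical hook, had implied means of 353 in dme and 1204 in WT. The authors' deposited table put it at -1.77 log2 units (adjusted p = 2.99e-45), and its SE bound, 0.125, was also the smallest. Its best protein match, SAUR33, was lower as well, at -1.21 (adjusted p = 0.0292) in the authors' deposited table. SAUR59 was at -1.09 (adjusted p = 2.42e-09) in the authors' deposited table, with implied means of 734 in dme and 1559 in WT. The best protein match of SAUR59 is SAUR36, a gene of leaf senescence, which was not in the table.

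SAUR60 was at -1.26 log2 units (adjusted p = 1.22e-06) in the authors' deposited table, and its transcript overlaps a protein-coding and a noncoding gene on the other strand. SAUR72, of the SAUR41 subfamily, was at -1.31 (adjusted p = 0.0356) in the authors' deposited table, with implied means of 144 in dme and 358 in WT and an SE bound of 0.624. SAUR58 was at -1.72 (adjusted p = 0.0209) in the authors' deposited table.

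Per kb of transcript, the members with the highest implied WT level were SAUR14, SAUR6, SAUR50, SAUR32, SAUR59 and SAUR16. SAUR14 had 812 normalized counts per kb in dme and 1634 in WT. SAUR16 had 122 in dme and 1011 in WT on the same scale. In dme the order was thus led by SAUR14, followed by SAUR59 at 617 per kb, and SAUR16 fell behind SAUR24 and others. These orders carry no error, since the table has none for the levels.

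The largest falls rested on few reads. SAUR46 and SAUR57 are each other's best protein match. The authors' deposited table put SAUR46 at -4.44 log2 units (adjusted p = 0.0294) and SAUR57 at -3.85 (adjusted p = 0.00326). The implied mean of SAUR46, times 3 libraries, came to 1.04 normalized counts in dme and 22.6 in WT, and that of SAUR57 to 2.93 in dme and 42.3 in WT, so these folds are not resolved in size. SAUR10, a growth-promoting gene that responds to brassinosteroids, was at -3.62 (adjusted p = 0.00114) in the authors' deposited table, with implied means of 2.29 in dme and 28.3 in WT. No member had the pattern of a gene without reads in 1 genotype, which 290 genes of the table had.

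**Figure D3:**
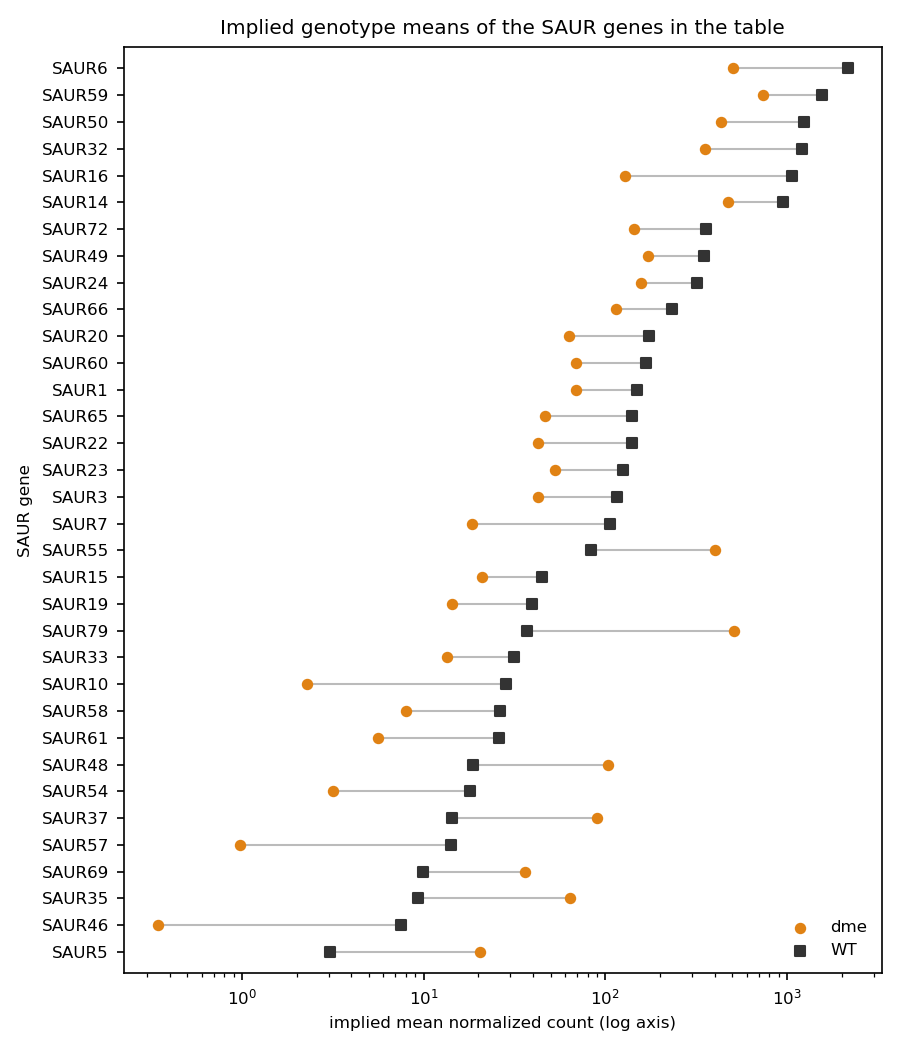
Implied mean normalized count of each of the 34 SAUR genes in dme (orange circles) and WT (black squares) on a log axis, ordered by the WT value. SAUR6 is at 504 in dme and 2153 in WT at the top, and SAUR79, with 514 in dme and 37.1 in WT, spans the widest gap among the genes higher in dme.

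The 7 genes higher in dme were SAUR5, SAUR35, SAUR37, SAUR48, SAUR55, SAUR69 and SAUR79. SAUR79 had the largest rise, 13.9-fold or 3.79 log2 units (adjusted p = 1.42e-15) in the authors' deposited table. Its implied means were 514 in dme and 37.1 in WT. It carries a SAUR name but no description in the table, and was the 1 member found by name only.

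SAUR55 had the smallest adjusted p of the higher genes, 2.84e-21 at 2.28 log2 units in the authors' deposited table, and its implied means were 402 in dme and 83.0 in WT. SAUR37 was at 2.64 (adjusted p = 9.1e-08) and SAUR35 at 2.78 (adjusted p = 1.33e-05) in the authors' deposited table. SAUR37 had implied means of 89.9 in dme and 14.4 in WT, and SAUR35 of 63.6 in dme and 9.29 in WT. SAUR48 was at 2.49 (adjusted p = 0.0116) in the authors' deposited table, with implied means of 104 in dme and 18.6 in WT. SAUR69, at 1.86 (adjusted p = 0.0059) in the authors' deposited table, was the 1 higher gene under 4-fold. The folds of SAUR5, SAUR35, SAUR37, SAUR48 and SAUR55 lie closer together than the SE bounds of SAUR5 (1.07), SAUR48 (0.986) or SAUR35 (0.637), so their order is not resolved.

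The coding sequences of the members were set beside those of the rest of the family. Their median length was 339 bases in the 27 lower members (range 261 to 561), 447 bases in the 7 higher ones (342 to 570) and 369 bases in the 45 genes not in the table (267 to 573), and the ranges overlap. A single coding exon was annotated for 33 of the 34 members and 76 of the 79 genes of the family. By the best protein match in the table's annotation, the 27 lower members had a match that was lower in 15, higher in 2 and not in the table in 10. For the 6 higher members with a match it was lower in 1, higher in 0 and not in the table in 5. Relatives share ancestry and, in part, a position in an array, so these counts are a description.

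Motifs, 4 in number, were searched on both strands of the 300 bases before each annotated gene start. They were the auxin response elements TGTCTC and TGTCGG and the E-box motifs CACGTG (G-box) and CATATG, both known as sites of PIF or brassinosteroid factors. TGTCTC was found in 5 of 27 lower members (18.5%), in 0 of 7 higher members, in 2 of 45 SAUR genes not in the table (4.44%) and in 13.0% of all annotated protein-coding genes. TGTCGG was found in 0 of the 34 members, in 4.44% of the SAUR genes not in the table and in 4.91% of all genes. At least 1 of these auxin elements was found in 18.5% of the lower members, against 17.3% of all genes. The share was 8.89% of the SAUR genes not in the table and 0 of the 7 higher members. CACGTG was found in 1 lower member, SAUR59, in 0 of the SAUR genes not in the table and in 7.09% of all genes. CATATG was found in 6 lower members (22.2%), 1 higher member (14.3%), 17.8% of the SAUR genes not in the table and 8.81% of all genes. None of these shares was tested. The window of SAUR7, with 4 of the TGTCTC sites, lies within the SAUR6 gene. SAUR20 and SAUR22, copies in the same array, have the same bases before a TGTCTC site, so the 5 lower members with TGTCTC are not independent.

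Stretches around CATATG in the SAUR19 array are shown because the same 12 bases lie before the motif in 3 lower genes. CATATG was also found before SAUR21, the gene of this array that was not in the table. It was not found before SAUR19 and SAUR23, both lower. The bases around the SAUR21 site were not compared. The motif is in capitals, and its distance to the gene start is 115 bases in SAUR20, 179 in SAUR22 and 162 in SAUR24.
SAUR20 (chr5:5966883-5966912, minus strand, TAIR10.1): ccttgtgaattgCATATGgattttgttttt
SAUR22 (chr5:5975249-5975278, minus strand, TAIR10.1): ccttgtgaattgCATATGgagtttgttaat
SAUR24 (chr5:5983509-5983538, plus strand, TAIR10.1): ccttgtgaattgCATATGaagtttgtagtt
Sites of TGTCTC, written GAGACA where they lie on the other strand, are shown for SAUR15, the auxin reporter gene, and for SAUR66.
SAUR15 (chr4:18125953-18125982, plus strand, TAIR10.1): tgtgatgtctttGAGACAaataagccccaa
SAUR66, upstream site (chr1:10320829-10320858, plus strand, TAIR10.1): tttggctgctctTGTCTCcaagacttatct
SAUR66, downstream site (chr1:10320888-10320917, plus strand, TAIR10.1): aaatgtaacaacTGTCTCttgcattcttca
These are bases of the Columbia reference, and the seedlings were of the Ler accession.

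Other genes of the auxin pathway are given by list, beside a background of 18.6% of annotated protein-coding genes in the table, 13.7% higher and 4.86% lower. Of 6 auxin receptor genes 2 were lower and 0 higher, with TIR1 at -1.01 and AFB3 at -1.44 log2 units in the authors' deposited table. Of 29 Aux/IAA repressor genes 2 were lower and 1 higher, or 10.3% in the table, below the background share. IAA29 was at -2.78 and IAA4 at -1.74, while IAA28, which acts in lateral root initiation, was at 1.31 in the authors' deposited table. Of 15 ARF genes ARF17 was lower, at -1.12 in the authors' deposited table, and 14 were not in the table, so that the share of 6.67% is also below the background.

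GH3 enzymes conjugate auxin to amino acids, and several of their genes respond to auxin early, as SAUR genes do. Of 8 GH3 genes 2 were lower, GH3.5 at -1.54 and GH3.6 at -1.65, and 2 higher, GH3.1 at 3.43 and GH3.9 at 1.31 log2 units in the authors' deposited table. Of 16 transport genes 3 were higher and 2 lower. PIN2, the efflux carrier of the root epidermis, was at 3.51 and ABCB4 at 1.97, but PIN3 at -1.48 and PIN4 at -1.49 in the authors' deposited table. Of 18 auxin synthesis genes 3 were higher and 3 lower. By adjusted p these were led by NIT1 at -1.07, CYP79B2 at 1.99, YUC2 at -2.47 and YUC6 at -1.31 in the authors' deposited table.

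SAUR19-type proteins bind PP2C.D phosphatases and, through them, act on plasma membrane proton pumps. Which of the 9 phosphatases bind SAUR proteins was not examined here. Of 9 PP2C.D phosphatase genes 4 were higher, 1 was lower and 4 were not in the table, where 72.8% of all genes were higher. The authors' deposited table put AT4G33920 (PP2C.D8) at 2.81 log2 units (adjusted p = 3.19e-61), AT5G06750 (PP2C.D9) at 2.05 and AT3G55050 (PP2C.D4) at 1.24. AT5G02760 (PP2C.D1) was lower, at -2.39 (adjusted p = 2.07e-25) in the authors' deposited table. Of 11 proton pump genes 3 were higher, 0 lower and 8 not in the table. AHA2, a main pump of the plasma membrane, was at 1.53 (adjusted p = 5.79e-89), AHA4 at 1.92 and AHA7 at 1.47 in the authors' deposited table.

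Of 10 light and brassinosteroid regulators PIF1 and PIF4 were lower, at -1.70 and -1.04 log2 units in the authors' deposited table. PIF4 activates auxin synthesis and SAUR genes in warm or shaded hypocotyls. PAR1, which the table's annotation gives as a repressor of SAUR15 and SAUR68, was at -1.22 (adjusted p = 4.82e-06) in the authors' deposited table. It was named after its value was seen.

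**Figure D4:**
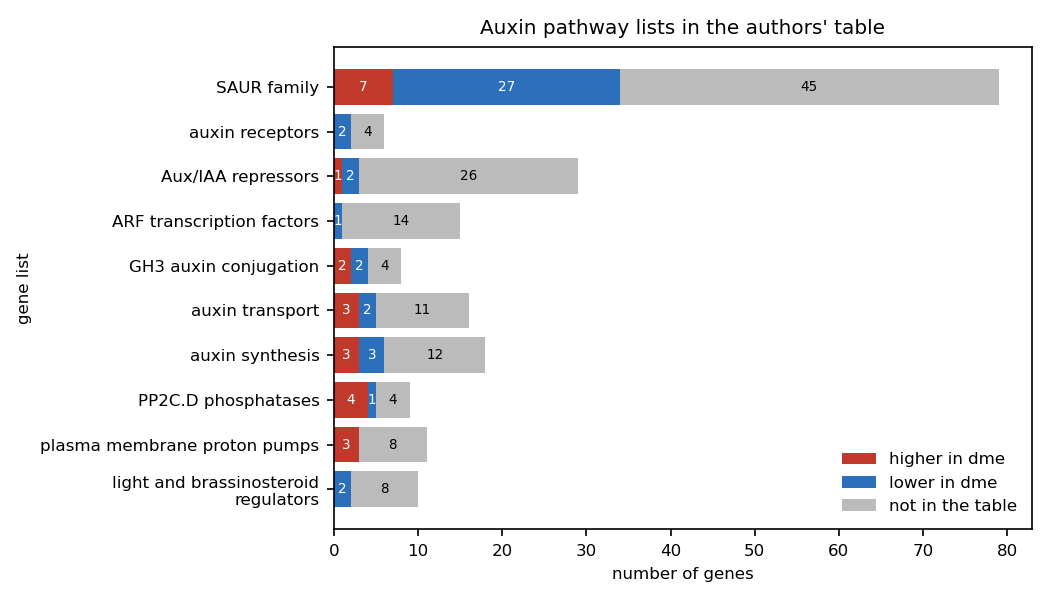
Number of genes of the SAUR family and of 9 lists of the auxin pathway that were higher in dme (red), lower in dme (blue) or not in the authors' table (grey). The SAUR family has 7 higher and 27 lower of 79 genes, and the proton pumps 3 higher and 0 lower of 11.

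Some markers of the parts of the seedling were in the same table. Of 8 root markers 5 were higher and 0 lower, led by PIN2, CASP1, PLT1 and PLT2, and the 5 summed implied means were 3322 normalized counts in dme and 340 in WT. Among annotated protein-coding genes 13.7% were higher and 4.86% lower. Of 8 leaf photosynthesis markers (12.5% in the table, against 18.6% of protein-coding genes) CAB2 was lower, at -1.11 log2 units in the authors' deposited table, and 7 were not in the table. CAB2 has near-identical neighbours that may share its reads, and its implied means were 23596 in dme and 50804 in WT. Which organ the SAUR reads came from is not known, and the part of organ proportions in the SAUR values was not tested.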

How the data were processed

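Reads of 6 seedling libraries were processed by the submitters. Per the submitters' processing notes the tools were StringTie 2.1.3, HISAT2 2.1.0 and Trimmomatic 0.36, with build TAIR10. Counting, strand and the testing tool were not given in the sources used here. One table was analysed. Per the file headers it holds the mean normalized count over all libraries, a signal deposited by the authors, the authors' log2 fold change and linear fold, and the authors' adjusted p-value. It has 0 columns of values per library, so the edgeR fit and the depth per library could not be had, and the authors' values were used. The direction of the fold was read as dme over WT because the table's title names dme, but neither title nor header states it. Of 5322 rows 11 repeat another row's name and values and were counted once, which touches no SAUR gene.

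The implied WT mean was 2 times the mean over 1 plus the fold, for 3 against 3 libraries, and the dme mean was that times the fold. The bound of the standard error was the size of the log2 fold divided by the two-sided normal quantile of the adjusted p, which is an upper bound only if the p came from such a test. Both steps were tested on data simulated under the same assumptions, which checks the arithmetic and not whether the assumptions hold here. No further test was made. The members and lists were chosen with earlier results of these data known. All members may be named, with up to 4 per pathway list by adjusted p. SAUR genes of the family, exons, overlaps, order and sequences come from the RefSeq annotation and genome of TAIR10.1, whose nuclear chromosomes carry the TAIR10 sequence; 5292 of the 5322 locus codes matched. AT5G01830, named SAUR21 there but annotated as an ARM repeat protein, was left out. AT1G29490 and AT1G29510 both carry the name SAUR68, and the second is called SAUR67 here. Coding sequences were aligned globally with biopython 1.88 (Python 3.11.15, numpy 2.4.6, pandas 2.3.3, scipy 1.17.1, matplotlib 3.10.9), and identity is the percent of aligned columns. The PP2C.D names are not in that annotation, so locus codes are given. Alternatives were other thresholds, membership rules and shifts of the fold.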

Additional observations from a re-analysis of the deposited data

How the results depend on the processing

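The median log2 fold change of the SAUR genes stayed below 0 in all 12 alternatives run, between -2.15 at a 4-fold threshold and -1.21 with log2 fold changes shifted by 0.5 or without tandem arrays. Because every gene counted was past 2-fold, this says only that lower genes outnumbered higher ones. The alternatives on repeated rows, on genes without reads in 1 genotype and on gene names kept the same 27 lower and 7 higher genes. The number of lower genes moved from 27 to 17 at an adjusted p under 0.01, to 8 at 4-fold, to 13 with the shift of 0.5 and to 9 without tandem arrays, and that of higher genes from 7 to 4 among genes with mean counts of 50 or more. These follow from fewer genes passing or entering. A shift can also bring in genes that the table does not hold, which is not counted. At 4-fold 6 genes were higher and 8 lower. The number of lower genes was 24 without 3 genes of low implied mean and 22 without 5 genes that have a copy of at least 90% identity. Leaving out tandem arrays, genes of low implied mean or near-identical copies was chosen after seeing the data. Of the lower genes 6 lay within 0.1 of the threshold on the log2 scale.

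No paired analysis was possible because the table has no values per library, and for the same reason the alternatives that leave out a replicate were not run. The depth of the libraries is unknown.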
